A study of Mus musculus with 18 samples.

Results

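The comparison set the reporter-positive cells of a Pitx3::YFP line against the reporter-positive cells of a Nurr1::GFP line. It rests on 6 of the 18 Illumina BeadArrays of the series, 3 for each line, chosen by their titles and numbered 1 to 3 within each group. Both lines were mouse embryonic stem cells of strain J1, a male line, and each carried a reporter on a bacterial artificial chromosome (BAC), with GFP under the control of Nurr1 or YFP under that of Pitx3. Cells were differentiated toward midbrain dopamine neurons and separated by flow cytometry on days 14 to 15. The Nurr1 positive group held Nurr1::GFP+ cells, the Pitx3 positive group Pitx3::YFP+ cells, and the 2 further groups used here held the reporter-negative Nurr1::GFP- and Pitx3::YFP- cells of the same lines, 3 arrays each. A Hes5::GFP line with 6 arrays entered the fit for its spread. The array with the number 2 of its negative cells has contradictory labels.

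The design sets stage and line in the same contrast: the Pitx3 reporter stands for a later stage than the Nurr1 reporter, and it sits in another line. The 2 cannot be told apart between the positive groups. The labels do not say whether a line is 1 clone, nor whether the 3 arrays of a group come from separate differentiations. The p-values may therefore not measure the spread between separate differentiations. Within a line, the positive and negative fractions of 1 number deviated together (correlations of 0.62 to 0.77), so part of the spread was shared by both fractions. The sort reads the activity of the BAC, and a positive gate can hold cells of several types and ages.

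Midbrain dopamine neurons arise from the floor plate, where Lmx1a and Foxa2 act in dividing progenitors. Nurr1, the nuclear receptor encoded by Nr4a2, appears as the cells leave the cell cycle and is needed for the dopamine phenotype. The homeobox factor Pitx3 follows, and the mature cell makes dopamine with Th and Ddc, loads it into vesicles through Slc18a2 and takes it back through the transporter Slc6a3. In bulk RNA, fewer cells of a type and less RNA per cell cannot be told apart.

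Values are normalized log2 intensity, and series of 3 values run in the order of arrays 1, 2 and 3. A gene was called at an adjusted p under 0.05 over 12650 genes (limma, Benjamini-Hochberg, two-sided). The depth of the arrays was alike: over all 18, median raw intensity lay between 40.6 and 60.2 and the share of probes above background between 33.5% and 37.4%. The number of arrays limits the precision. Over the genes tested the 6 arrays correlated at 0.899 to 0.972, and the lines did not separate. Pitx3 positive array 1 correlated at 0.963 with Nurr1 positive array 2 and at 0.902 with Pitx3 positive array 2. The Pitx3 positive arrays thus differed more among themselves than from some arrays of the other line, and single-array values are given throughout.

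The 2 marker genes of mature dopamine neurons were read first. Slc6a3, the dopamine transporter, read 7.73, 8.69 and 9.46 in Nurr1 positive cells and 7.57, 14.14 and 11.05 in Pitx3 positive cells. Pitx3 read 7.39, 7.91 and 8.13 against 7.88, 10.43 and 9.17. In Pitx3 positive arrays 2 and 3 both markers were above every Nurr1 positive array, while in array 1 they were within the Nurr1 positive range or below it. The groups overlapped, and neither marker passed (Slc6a3 difference 2.29, SE 1.57, adjusted p = 0.981; Pitx3 1.35, SE 0.71, 0.974). The Slc6a3 difference was 3.97 without Pitx3 positive array 1 and 0.68 without array 2. Both were above background in all 6 arrays, those of the Nurr1 line included. The markers thus set Pitx3 positive arrays 2 and 3 apart from the Nurr1 positive arrays, but not array 1.

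A reporter probe did not order the groups the same way. Deposited as EGFP, it gave 12.23, 11.76 and 10.67 in Nurr1 positive and 9.97, 11.12 and 10.98 in Pitx3 positive cells (difference -0.87, SE 0.53, adjusted p = 0.979). In negative cells it read 7.70, 7.95 and 8.48 against 6.39, 6.52 and 6.07, lower without overlap in the Pitx3 line (difference -1.72). The lines carry GFP and YFP on different BACs, and whether the probe reads both alike was not tested. Nr4a2 read 11.02, 10.32 and 10.44 against 9.86, 11.16 and 11.16, with overlap and a difference of 0.13 (SE 0.89, adjusted p = 0.999).

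The promoters of 4 genes are shown because the first pair drives the sorts and the second pair belongs to the genes that passed the test. Each runs from 250 bases before to 50 after the start of the gene in RefSeq, build GRCm38.p6, 5′ to 3′ on the strand of the gene, and capitals mark CpG dinucleotides. They are Pitx3 at chr19:46148276-46148575 (minus strand), Nr4a2 at chr2:57123954-57124253 (minus), Grb10 at chr11:12037371-12037670 (minus, 1 of 2 starts in the table) and Eif2s3y at chrY:1010345-1010644 (plus).
Pitx3: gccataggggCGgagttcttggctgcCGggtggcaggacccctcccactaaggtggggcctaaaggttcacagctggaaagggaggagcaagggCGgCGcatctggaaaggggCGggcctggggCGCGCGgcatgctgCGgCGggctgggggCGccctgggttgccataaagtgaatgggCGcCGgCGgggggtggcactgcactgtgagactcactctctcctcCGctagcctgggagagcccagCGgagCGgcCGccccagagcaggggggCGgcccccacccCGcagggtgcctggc
Nr4a2: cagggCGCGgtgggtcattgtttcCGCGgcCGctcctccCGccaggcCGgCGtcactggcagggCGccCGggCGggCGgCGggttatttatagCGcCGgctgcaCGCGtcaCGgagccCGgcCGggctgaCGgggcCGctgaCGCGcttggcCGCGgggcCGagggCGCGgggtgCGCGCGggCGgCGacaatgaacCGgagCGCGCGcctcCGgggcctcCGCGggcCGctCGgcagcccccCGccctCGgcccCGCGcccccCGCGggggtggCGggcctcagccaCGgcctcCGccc
Grb10: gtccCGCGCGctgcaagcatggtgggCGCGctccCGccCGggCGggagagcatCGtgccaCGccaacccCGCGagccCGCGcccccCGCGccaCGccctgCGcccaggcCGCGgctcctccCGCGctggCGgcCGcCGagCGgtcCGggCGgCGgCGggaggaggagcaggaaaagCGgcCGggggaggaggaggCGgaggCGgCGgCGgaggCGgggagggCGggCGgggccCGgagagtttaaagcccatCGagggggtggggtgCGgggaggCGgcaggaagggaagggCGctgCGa
Eif2s3y: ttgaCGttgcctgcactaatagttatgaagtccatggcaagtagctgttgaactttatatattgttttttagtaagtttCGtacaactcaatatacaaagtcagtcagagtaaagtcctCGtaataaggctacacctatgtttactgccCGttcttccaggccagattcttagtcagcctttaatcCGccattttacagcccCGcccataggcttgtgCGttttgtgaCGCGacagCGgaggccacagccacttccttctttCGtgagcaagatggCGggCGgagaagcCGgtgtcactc
The Nr4a2 window held 52 CpGs and the Grb10 window 45, more than 99.4% and 98.1% of 32851 promoters of the same length. Pitx3 held 20 and Eif2s3y 14, against a median of 7. Searched on both strands, the Nurr1 response element AAAGGTCA, present in 1.51% of all promoters, had no match in these 4 windows. The Pitx-type core TAATCC, present in 7.06%, matched once, in the Eif2s3y window. A missing match says only that these letters are not in the window.

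Between the positive cells of the lines, 2 of 12650 genes (0.0158%) were called, both higher in Pitx3 positive cells, and neither is a dopamine gene. The first was Grb10, an imprinted adaptor that restrains insulin and insulin-like growth factor receptor signalling and that is read from the maternal allele in most tissues and the paternal allele in neurons. It read 6.99, 7.18 and 7.72 in Nurr1 positive and 11.67, 11.51 and 11.51 in Pitx3 positive cells. The 3 Pitx3 positive arrays lay within 0.16 of each other, which set Grb10 apart from most genes described below, and all were above every Nurr1 positive array. The rise was 19.2-fold (log2 4.27, SE 0.31, adjusted p = 1.13e-05). A second probe for Grb10 was above background on 3 of the 6 arrays and another on none.

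The second called gene was Eif2s3y, the Y-linked copy of a subunit of a translation initiation factor. It read 8.19, 8.70 and 9.14 in Pitx3 positive cells. In Nurr1 positive cells it read 4.55, 4.49 and 4.57, not above background on any array. Pitx3 positive cells were thus at least 7.08-fold higher (adjusted p = 0.0063), the bound being taken against the lowest signal above background on the Nurr1 positive arrays. A second probe of the gene was above background on none of the 6 arrays. Its call was lost without Nurr1 positive array 1 (adjusted p = 0.0506), Nurr1 positive array 2 (0.0565), Pitx3 positive array 2 (0.0527) or Pitx3 positive array 3 (0.0740), while Grb10 passed in each of these fits.

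Both genes were also higher in the Pitx3 line in cells that the reporters did not mark. Grb10 read 9.41, 8.24 and 9.06 in Nurr1 negative and 11.84, 11.97 and 11.99 in Pitx3 negative cells, a difference of 3.03 (SE 0.31, adjusted p = 0.0011). Eif2s3y read 4.64, 4.51 and 4.59 against 8.15, 8.60 and 9.04, at least 6.94-fold higher (adjusted p = 0.0092). They were also the 2 genes called between the negative fractions (2 of 12650, 0.0158%). In the Hes5 line Grb10 read between 11.76 and 12.78 over the 6 arrays, close to the Pitx3 line, and Eif2s3y between 4.94 and 7.61. The plot of the called genes shows all 18 arrays.

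**Figure D1:**
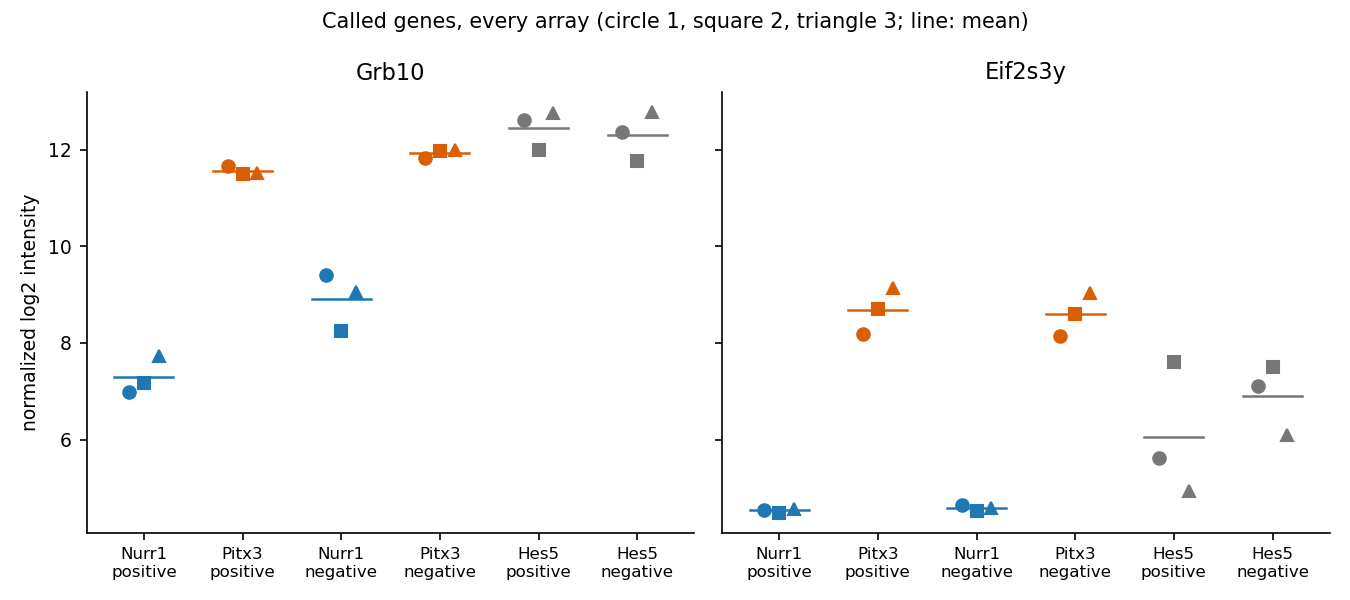
Normalized log2 intensity (y axis) of Grb10 and Eif2s3y in each of the 18 arrays, grouped by line and sort (x axis); circles, squares and triangles are arrays 1, 2 and 3 and the line is the group mean. Grb10 in the Nurr1 line lies below both other lines in both fractions, and Eif2s3y is not above background in any of the 6 Nurr1 arrays.

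The neighbours of these genes did not follow them to the same size. Ddc, next to Grb10 in the RefSeq order and imprinted in the same cluster, read 13.47, 13.09 and 13.30 in Nurr1 positive and 13.54, 14.36 and 14.04 in Pitx3 positive cells (difference 0.69, adjusted p = 0.993). Cobl, on the other side, read 6.14, 6.61 and 6.32 against 6.76, 7.19 and 6.10 (0.33, adjusted p = 0.993). Ddx3y, a Y-linked RNA helicase, was above background in all 6 arrays, at 8.79, 7.30 and 8.89 against 9.15, 9.75 and 9.95. Its groups did not overlap, and it did not pass (difference 1.29, SE 0.41, adjusted p = 0.906). The X-linked copy Eif2s3x read 10.04, 9.99 and 9.53 against 9.53, 9.82 and 9.79, with overlap. Of 8 Y-linked genes listed, 2 could be tested, and whether reads of an X-linked copy enter the Ddx3y probe was not tested.

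Among 24 tested imprinted genes, a list drawn up after Grb10 had been seen, 1 was called, 11 means were higher and 13 lower, with a median difference of -0.06 against 0.002 over all genes. Dlk1, a paternally expressed membrane protein of the Notch ligand family found in dopamine neurons, read 12.65, 13.08 and 13.22 in Nurr1 positive and 13.86, 14.85 and 14.26 in Pitx3 positive cells. Every Pitx3 positive array was above every Nurr1 positive array (difference 1.34, SE 0.42, adjusted p = 0.906). Dlk1 was higher without overlap in the negative cells of the Pitx3 line too, at 12.97, 14.02 and 13.07 against 11.13, 12.63 and 12.41 (difference 1.30). Its sort effects differed by 0.046 between the lines. Mkrn3 (difference 0.65) and Peg10 (0.56) did not overlap in the same direction, nor Impact (-0.56) and Cdkn1c (-0.41) in the other. None of these 5 passed.

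Apart from the 2 calls, no gene passed. The groups did not overlap for 1112 genes (8.79%), 583 higher (4.61%) and 529 lower (4.18%) in Pitx3 positive cells, and 643 genes (5.08%) had an unadjusted p under 0.05. Over all genes, 6359 means were higher and 6291 lower in Pitx3 positive cells. Counts of list members by mean or without overlap are to be read beside these shares. None of the members of the 28 gene lists was called. With a weight fitted to each array, 1031 genes passed, 379 higher and 652 lower, in a fit that gave Pitx3 positive array 3 a weight of 6.87 and array 1 a weight of 0.35. The genes below are therefore given by their values and are not called changed.

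Among the transcription factors of dopamine neurons, 12 of 14 were tested and 8 means were higher. Without overlap 2 members were higher, as 4.61% of all genes were. En1 and En2, the engrailed factors that keep dopamine neurons alive, were the 2. En2 read 10.59, 10.27 and 9.76 in Nurr1 positive and 11.53, 11.91 and 12.06 in Pitx3 positive cells, the smallest unadjusted p of the list (difference 1.63, SE 0.35, adjusted p = 0.702). En2 was higher in the negative cells of the Pitx3 line too, at 10.80, 10.46 and 10.45 against 9.36, 9.48 and 9.35. En1 read 12.02, 12.11 and 12.33 against 13.06, 14.05 and 13.15 (1.27, adjusted p = 0.972). The floor plate factors of the same list overlapped: Lmx1a read 13.03, 12.22 and 12.05 against 11.83, 12.13 and 12.35, and Foxa2 10.33, 9.84 and 9.99 against 9.86, 9.78 and 10.11. The list's median difference was 0.14.

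The genes for making, storing and taking up dopamine leaned toward the Pitx3 line and did so unevenly over its arrays. Of 12, 10 were tested, 8 means were higher and the median difference was 0.82. Without overlap 3 were higher, as 4.61% of all genes were. In the negative fractions 3 were also higher without overlap, as 4.92% of all genes were, with a median of 0.39. The median of the difference of sort effects was -0.17. Aldh1a1 and Maoa were not above background in any of the 6 arrays. The list median was 9.28 in Pitx3 positive array 1, 10.01 in array 3 and 11.12 in array 2, against 9.20, 8.94 and 9.42 in the Nurr1 positive arrays. Th, the rate-limiting enzyme of dopamine synthesis, read 12.76, 12.97 and 11.82 against 12.78, 14.25 and 13.35 (difference 0.94, SE 1.26, adjusted p = 0.993). Of the 10 genes, 6 ascended in the order of arrays 1, 3 and 2, as 25.9% of all genes did. This is also the order of the markers Slc6a3 and Pitx3, and Slc6a3 is among the 10, so the count is a description only. Th and the transporter Slc6a3 were both above background in all 6 arrays. Between arrays 1 and 2 of the Pitx3 line, Th differed by 1.47 and Slc6a3 by 6.57. The vesicular transporter Slc18a2 read 9.73, 8.93 and 9.07 against 8.71, 11.03 and 9.89, again lowest in Pitx3 positive array 1.

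Drd2 and Gch1 were the members without overlap beside Ddc. Drd2, the dopamine receptor that these neurons use as an autoreceptor, read 6.73, 7.13 and 5.87 against 7.26, 9.11 and 7.59 (difference 1.41, SE 0.40, adjusted p = 0.896). Gch1, which makes the cofactor of tyrosine hydroxylase, read 9.28, 9.69 and 9.65 against 11.16, 11.08 and 10.14 (1.26, SE 0.54, adjusted p = 0.972). Gch1 also serves serotonin synthesis, and in the negative fractions it was higher in the Pitx3 line as well, at 10.93, 12.11 and 11.41 against 8.98, 10.53 and 10.29.

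**Figure D2:**
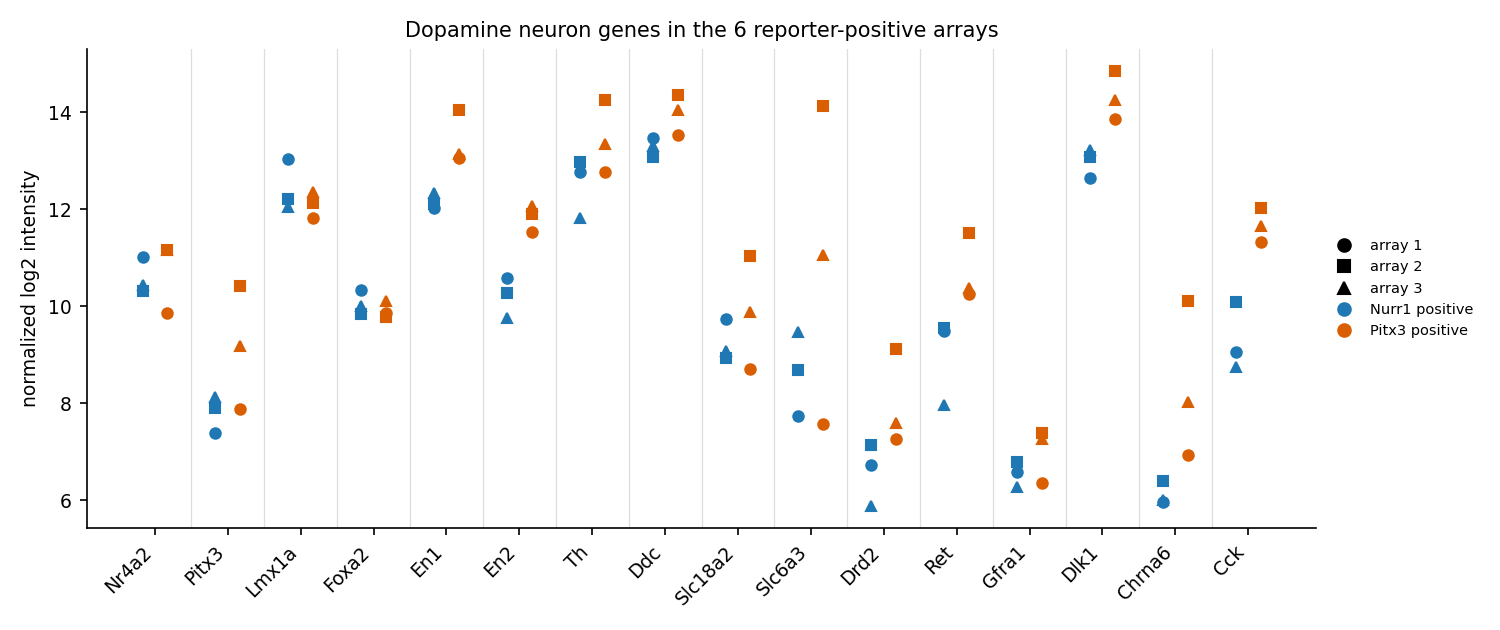
Normalized log2 intensity (y axis) of 16 dopamine neuron genes (x axis) in the 3 Nurr1 positive (blue) and 3 Pitx3 positive arrays (orange), with the marker shape giving the array number. Pitx3 positive array 2 is the highest of the 6 for Pitx3, Th, Slc18a2, Slc6a3, Drd2, Ret and Chrna6, and array 1 is level with the Nurr1 line for Pitx3 and Slc6a3.

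Receptors and subtype genes of dopamine neurons were among the larger differences that were not called. Ret, the signalling receptor for glial-derived neurotrophic factors, read 9.49, 9.56 and 7.97 in Nurr1 positive and 10.25, 11.51 and 10.38 in Pitx3 positive cells (difference 1.71, SE 0.79, adjusted p = 0.972). Its coreceptor Gfra1 read 6.58, 6.78 and 6.27 against 6.34, 7.38 and 7.25, with overlap. All 5 tested members of the trophic list of 10 had higher means, with a median of 0.45, and 2 did not overlap. Cck, the neuropeptide cholecystokinin, read 9.06, 10.09 and 8.74 against 11.32, 12.02 and 11.65 (2.36, SE 1.08, adjusted p = 0.972). Cck was high in all Pitx3 positive arrays, array 1 included, which neither Slc6a3 nor Pitx3 was. Of 10 tested subtype genes out of 16, Cck was the 1 without overlap, 8 means were higher and the median was 0.45.

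The nicotinic receptor subunits split by member. Chrna6, a subunit typical of dopamine neurons, read 5.95, 6.39 and 6.01 in Nurr1 positive and 6.93, 10.10 and 8.03 in Pitx3 positive cells (difference 2.24, SE 0.54, adjusted p = 0.836), and a second probe gave 2.35. It was not above background in any negative array of the 2 lines. Chrna4 read 11.35, 11.04 and 10.91 against 11.41, 11.51 and 11.38, also without overlap. Other subunits had lower means and overlapped. Chrna5 read 8.42, 7.64 and 6.92 against 6.85, 6.23 and 6.97 (-0.97, SE 0.33, adjusted p = 0.906), and Chrna3 read 9.52, 9.04 and 8.16 against 7.38, 7.35 and 9.20 (-0.93, adjusted p = 0.974). Over the 5 subunits tested of 8, the median difference was -0.08.

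Further genes without overlap at the top of the ranking were neuronal or of general function. Nrxn3, a presynaptic adhesion protein, read 8.28, 7.58 and 9.13 against 9.18, 11.11 and 10.22 (difference 1.84, SE 0.55, adjusted p = 0.896). Ntsr1, a receptor for neurotensin, was above background in all Pitx3 positive arrays at 6.0, 7.62 and 6.10 and in no Nurr1 positive array, at least 1.65-fold higher (adjusted p = 0.896). Pprc1, a coactivator of mitochondrial gene transcription, read 8.63, 8.76 and 8.71 against 9.88, 10.38 and 10.17, with little spread in either group (1.44, SE 0.32, adjusted p = 0.702). Fgf13, which modulates sodium channels inside the cell, differed by 1.42 and the membrane protein gene Tmem268 by 1.44. Of 5 tested host genes of small nucleolar RNAs, listed after their p-values had been seen, Snhg5 (1.03), Snhg12 (0.91) and Snhg16 (0.98) were higher without overlap, and they did not overlap in the negative fractions either.

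General neuronal genes had mostly higher means in Pitx3 positive cells, with no call. Of 7 tested pan-neuronal genes out of 12, 6 means were higher, with a median difference of 0.36 and 1 without overlap. Stmn2, a regulator of microtubules, read 12.86, 13.27 and 13.06 against 12.96, 14.18 and 13.58, and Uchl1, the member without overlap, 11.30, 11.49 and 11.30 against 11.52, 12.21 and 11.75. Synaptic vesicle and release genes had higher means in 15 of 16 tested (median 0.34), 2 without overlap, Syt4 (0.78) and Sv2a (0.64). Array 2 was the highest Pitx3 positive array for 14 of these 16. Ion channel genes had 9 of 10 tested means higher (median 0.43), among them Cacna2d2 at 9.91, 10.04 and 9.47 against 10.17, 11.30 and 10.53. Axon guidance genes were even, 6 higher and 6 lower (median -0.02). The negative cells of the Pitx3 line were higher too, with medians of 0.83 for pan-neuronal, 0.73 for synaptic and 0.49 for ion channel genes. The medians of the difference of sort effects were -0.46, -0.31 and -0.22, so the lean was not particular to the positive cells.

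Progenitor genes had mostly lower means, with no call. All 13 tested floor plate genes of 15 had lower means in Pitx3 positive cells, 1 without overlap, with a median of -0.59. Corin, a protease of floor plate progenitors, read 11.89, 12.61 and 12.74 in Nurr1 positive and 11.95, 9.40 and 10.19 in Pitx3 positive cells (difference -1.90, adjusted p = 0.974). Shh, the ligand secreted by the floor plate, read 10.65, 11.55 and 11.52 against 11.70, 8.11 and 9.67, and Msx1 10.27, 9.11 and 9.65 against 9.42, 7.42 and 7.61. The first array of the Pitx3 line read with the Nurr1 line for Corin, Shh and Msx1. In the negative fractions 7 of the 13 were lower in the Pitx3 line without overlap, as 5.38% of all genes were, Lmx1a (12.06, 11.25 and 11.38 against 9.98, 10.07 and 10.29) among them. The list's median there was -0.65 and the median of the difference of sort effects 0.28, so the lower means were not particular to the positive cells.

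Cell cycle genes showed how far the Pitx3 positive arrays lie apart. Mki67, a marker of cycling cells, read 8.80, 8.61 and 8.70 in Nurr1 positive cells, and 9.70, 4.97 and 7.81 in Pitx3 positive cells, where array 2 was not above background. Top2a read 9.15, 9.31 and 9.30 against 10.63, 4.97 and 8.66. The Nurr1 positive arrays thus lay close together for both genes, between the arrays of the Pitx3 line. Of 13 tested members of 16, 12 means were lower (median -0.95), none without overlap, and 11 descended in the order of arrays 1, 3 and 2, which 24.4% of all genes did. The list median was 9.70, 5.38 and 7.94 in the Pitx3 positive arrays and 8.80, 8.75 and 8.78 in the Nurr1 positive arrays.

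Notch and neural stem cell genes followed the same order within the Pitx3 line. Hes5, the Notch target that drives the reporter of the Hes5 line, read 8.91, 9.12 and 10.19 against 10.83, 8.16 and 10.24, and Hey1 11.37, 12.25 and 12.07 against 13.23, 10.28 and 11.58. Array 2 was the lowest Pitx3 positive array for 9 of 10 tested Notch genes, and the median difference between the lines was -0.06. Nes, the progenitor filament nestin, read 9.22, 10.12 and 10.77 against 9.78, 6.73 and 8.59 (difference -1.67, SE 0.57, adjusted p = 0.906). Among 9 tested neural stem cell genes of 12, 7 means were lower (median -0.66), and Zic1 was above background in 2 of 3 Pitx3 positive arrays and in no Nurr1 positive array, at least 1.40-fold higher (adjusted p = 0.981). Proneural genes had 9 of 11 means lower (median -0.16), with Neurod4 at 9.62, 7.55 and 6.18 against 6.86, 6.46 and 7.65.

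**Figure D3:**
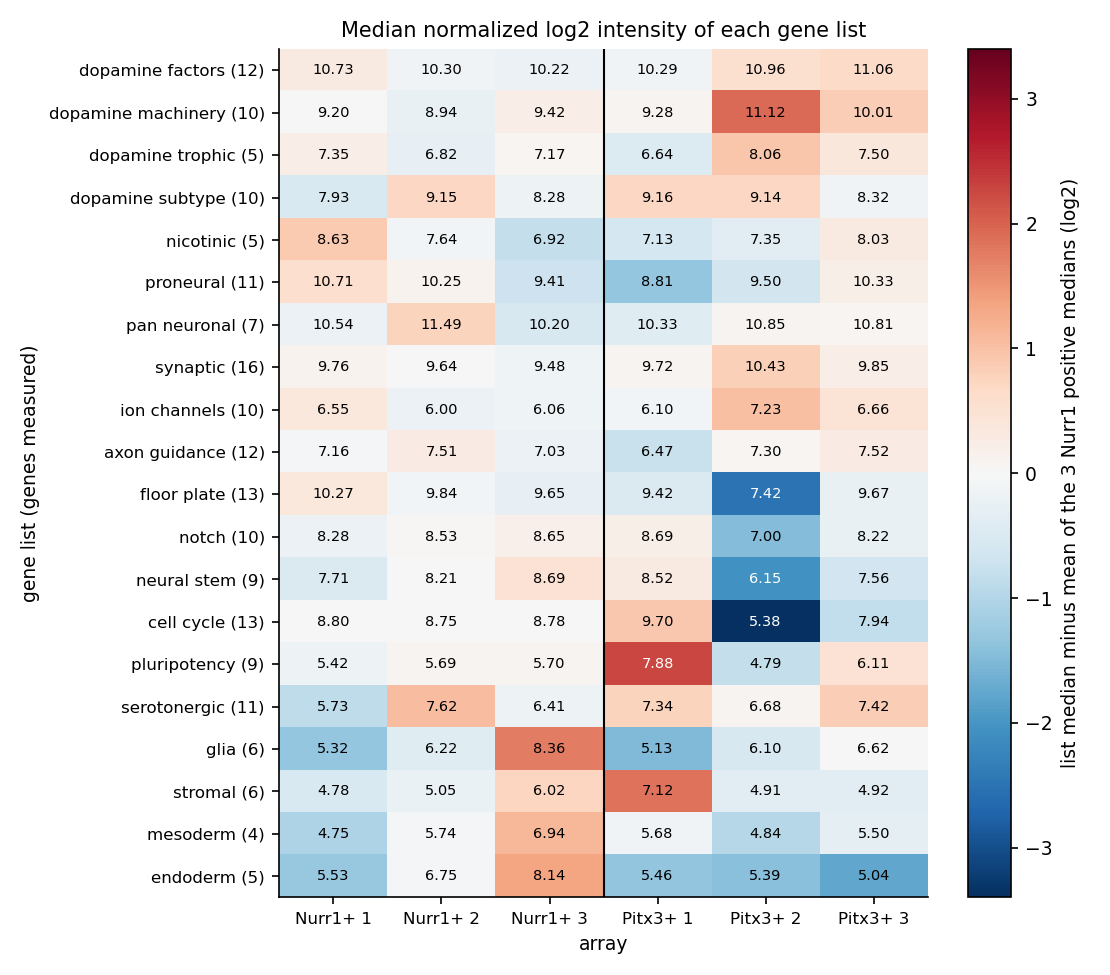
Median normalized log2 intensity of 20 gene lists (rows, with the number of genes measured) in each of the 6 reporter-positive arrays (columns); the number in a cell is the median and the colour is its distance from the mean of the 3 Nurr1 positive medians. Pitx3 positive array 2 is lowest for cell cycle (5.38) and highest for dopamine machinery (11.12), and array 1 is highest for pluripotency (7.88) and stromal genes (7.12).

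The genes with the largest ranges over the Pitx3 positive arrays are a description of those arrays, with no test. Array 2 was not above background for 10 of the 12, Slc6a3 and Bgn being the exceptions, so those ranges are set by background at their lower end. Dppa5a, a gene of pluripotent cells, read 12.82, 4.80 and 9.39, a range of 8.02, against 10.03, 8.81 and 9.85 in Nurr1 positive cells. The secreted genes of inflammation and tissue damage came with it: Lcn2 at 12.19, 4.61 and 7.0, Cxcl1 at 11.44, 4.92 and 7.94, Saa3 at 11.24, 5.35 and 6.74 and Ccl7 at 10.73, 4.84 and 8.06. So did the matrix genes Spp1 at 12.20, 4.47 and 8.78, Igfbp7 at 10.06, 4.50 and 7.51, Ccn2 at 11.51, 5.98 and 8.23 and Bgn at 11.69, 6.21 and 9.50. Of the 12 genes named by this rule, Slc6a3 was the 1 lowest in array 1, and the other 11, Top2a and Ccnb1 included, were highest there. The negative cells of array number 1 read much the same, with Lcn2 at 12.66 and Spp1 at 12.53.

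**Figure D4:**
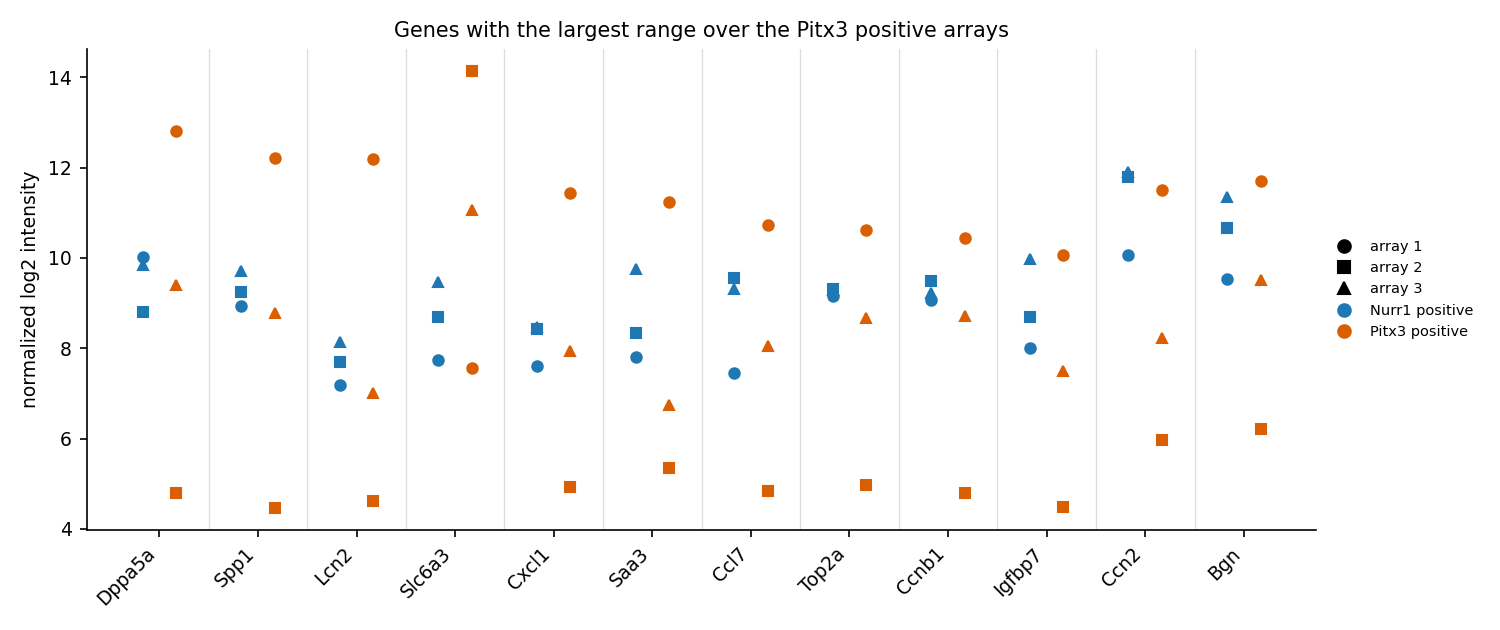
Normalized log2 intensity (y axis) of the 12 genes with the largest range over the 3 Pitx3 positive arrays (x axis, orange), beside the 3 Nurr1 positive arrays (blue); marker shape gives the array number. For 11 genes the orange circle (array 1) is the highest and the orange square (array 2) the lowest of the Pitx3 points, and for Slc6a3 the order is turned.

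Markers of pluripotent and of other cell types moved with array 1 of the Pitx3 line. Nanog read 8.79, 4.79 and 6.11 in Pitx3 positive and 5.42, 5.36 and 5.93 in Nurr1 positive cells, and Pou5f1 7.88, 4.75 and 5.26 against 5.11, 5.23 and 5.54, with array 1 as the 1 Pitx3 positive array above background for Pou5f1. Of 9 tested pluripotency genes, 7 means were higher (median 0.53). In the order of arrays 1, 3 and 2, 6 descended, as 24.4% of all genes did. The list median was 7.88, 4.79 and 6.11 against 5.42, 5.69 and 5.70. The Nurr1 positive medians and that of Pitx3 positive array 2 were under the lowest signal above background, which limits both readings. The negative fractions ran the other way (median -1.09), at 7.21, 5.47 and 5.88 in Pitx3 negative and 7.62, 7.13 and 7.39 in Nurr1 negative cells. The motor neuron factor Isl1 read 9.84, 4.62 and 5.88 against 6.09, 7.73 and 5.59, and the peripheral filament gene Prph 10.70, 6.64 and 6.43 against 8.45, 9.16 and 9.54. Stromal genes had a list median of 7.12, 4.91 and 4.92 against 4.78, 5.05 and 6.02, with Col1a1 at 8.17 in array 1. The part of these cells in the lower Slc6a3 and Pitx3 of array 1 was not tested.

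Of 12 motor and cholinergic genes 6 were tested, 5 means were higher (median 0.45) and 1 was without overlap. Chat, which makes acetylcholine, read 5.83, 6.15 and 4.99 in Nurr1 positive and 7.31, 6.81 and 6.76 in Pitx3 positive cells, without overlap (difference 1.30, SE 0.43, adjusted p = 0.906). Slc18a3, its vesicular transporter, read 6.31, 6.46 and 5.06 against 7.91, 7.24 and 6.41 with overlap (1.24, adjusted p = 0.972). The sensory and midbrain factor Pou4f1 ran the other way, at 7.50, 7.22 and 7.55 against 6.55, 5.05 and 7.05 (-1.21, adjusted p = 0.906). Slc17a6, the vesicular glutamate transporter of many midbrain neurons, was above background in all 6 arrays, at 13.72, 13.49 and 12.72 against 12.31, 13.24 and 13.45.

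Serotonin neuron genes, which share Lmx1b, Ddc and Gch1 with dopamine neurons, did not separate the positive groups. Tph2, the serotonin synthesis enzyme, read 6.57, 8.41 and 7.07 against 8.05, 7.15 and 7.81, and the factor Fev 5.02, 7.75 and 6.41 against 7.08, 7.03 and 7.42. All 11 members were tested, 10 means were higher (median 0.32) and none was without overlap. In the negative fractions the same list had a median difference of 1.69 with 5 members higher without overlap, as 4.92% of all genes were, Tph2 reading 10.33, 11.84 and 10.71 in Pitx3 negative and 6.71, 9.74 and 10.17 in Nurr1 negative cells. Of the GABA neuron genes, 6 of 10 were tested, with a median of 0.19, and 5 of 12 hindbrain genes were tested, all with lower means (median -0.65) and none without overlap. Of the forebrain list 3 of 14 were tested, all with higher means (median 0.84), and of the noradrenergic and the blood and microglia lists 1 gene each.

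The genes lower without overlap by the most were not neuronal, and most of them were highest in array 3 of the Nurr1 line. Gkn2, a gastrokine of the stomach lining, read 6.27, 9.54 and 11.97 in Nurr1 positive cells. In Pitx3 positive cells it read 4.64, 4.47 and 4.96, not above background on any array, at least 9.67-fold lower (adjusted p = 0.896). Krt8, a keratin of simple epithelia, read 7.33, 8.72 and 10.63 against 7.27, 5.30 and 6.20 (difference -2.63, SE 0.90, adjusted p = 0.906), and the water channel gene Aqp8 6.26, 8.01 and 10.67 against 5.52, 6.08 and 6.23. The endoderm factors Gata6 (5.06, 8.11 and 9.15) and Sox17 (5.12, 6.75 and 8.14) were above background in Nurr1 positive arrays 2 and 3 and in no Pitx3 positive array, at least 2.73-fold and 1.61-fold lower there. These genes were high or low together by array, and Nurr1 positive array 1 lay close to the Pitx3 line.

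Of the 5 tested endoderm genes of 10, 4 means were lower (median -0.33). Without overlap 3 were lower, as 4.18% of all genes were. Afp and Alb were above background in none of the 18 arrays, and Ttr in 2. In a longer list of 19 extraembryonic endoderm and epithelial genes, drawn up after these differences were seen, all 14 tested means were lower, with a median of -1.95. Its list median was 6.14, 7.93 and 9.80 in Nurr1 positive and 5.53, 4.92 and 5.33 in Pitx3 positive cells. The basement membrane genes Lama1 (8.03, 10.86 and 11.97 against 8.49, 6.72 and 7.17) and Col4a1 (9.41, 12.74 and 13.63 against 11.29, 8.32 and 8.89) belong to it. The Nurr1 negative cells had values near those of the positive cells of the same number, with a list median of 6.0, 7.83 and 9.33, and Gkn2 at 5.86, 9.32 and 11.41.

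**Figure D5:**
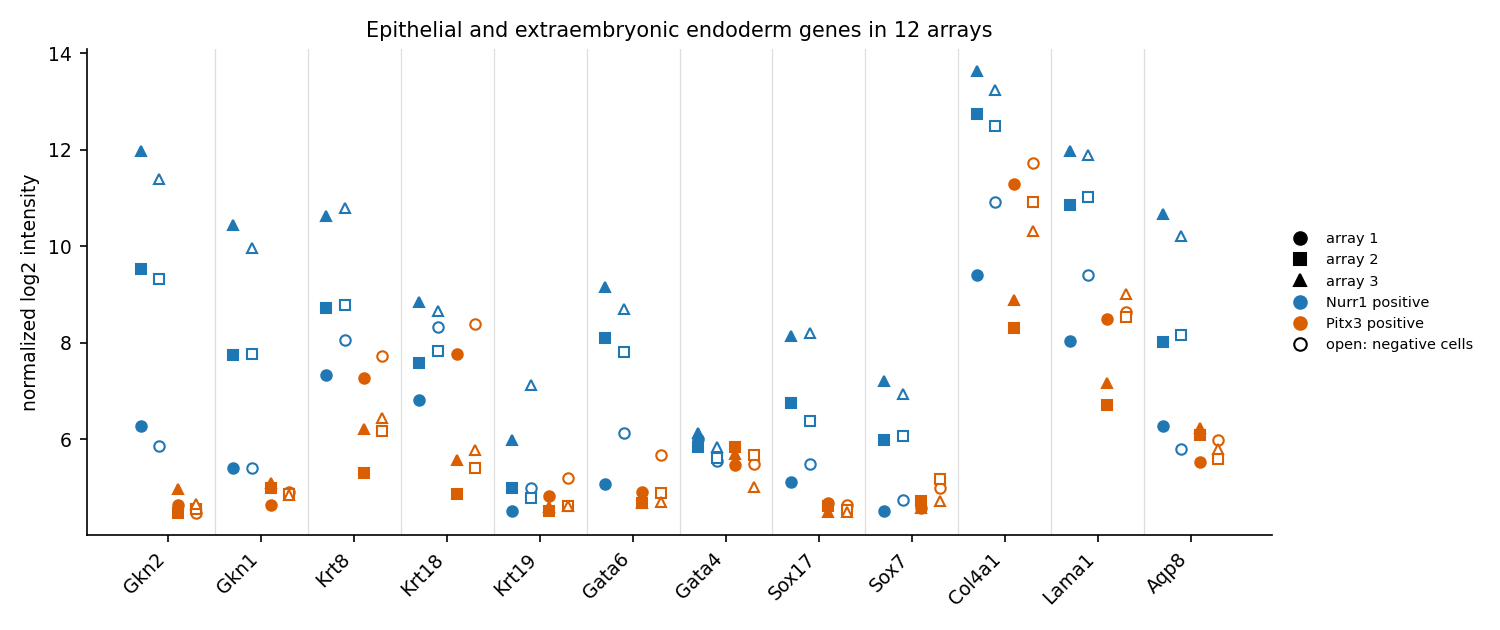
Normalized log2 intensity (y axis) of 12 epithelial and extraembryonic endoderm genes (x axis) in 12 arrays of the Nurr1 (blue) and Pitx3 lines (orange); filled markers are reporter-positive and open markers reporter-negative cells, and marker shape gives the array number. In the Nurr1 line positive and negative cells of an array number lie close for Gkn2, Gkn1 and Aqp8, for Gkn2 from 6.27 in positive array 1 to 11.97 in positive array 3, while Gkn2 is not above background in any array of the Pitx3 line.

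Other genes lower without overlap included the interferon-induced Ifi27 (10.24, 9.36 and 11.35 against 9.19, 7.10 and 7.95) and Usp18 (8.13, 6.92 and 8.93 against 6.86, 6.16 and 5.97). The growth factor receptor gene Fgfr3, a marker of progenitors, read 7.41, 7.83 and 7.32 against 6.88, 4.97 and 5.24 (difference -1.82, SE 0.50, adjusted p = 0.896), above background in 1 of 3 Pitx3 positive arrays. Hs3st1, a heparan sulfate sulfotransferase, read 8.74, 9.29 and 10.74 against 8.34, 7.79 and 7.51 (-1.71, SE 0.45, adjusted p = 0.896). Fst, which binds activin, differed by -1.53, Armc3 was at least 1.70-fold and Slc45a3 at least 2.05-fold lower, and the genes deposited as PROM and DNAHC2 differed by -1.78 and -1.96. Fst and DNAHC2, like Fgfr3, were above background in 1 of 3 Pitx3 positive arrays, so that these differences are taken largely against background. For 8 of these 9 genes Nurr1 positive array 3 was the highest of the 6, Fgfr3 being the exception.

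Glial and stress genes varied by array more than by line. The astrocyte water channel gene Aqp4 read 5.91, 8.51 and 9.31 in Nurr1 positive cells against 7.98, 6.07 and 6.83. Of 6 tested glial genes of 12, 3 means were lower and 3 higher (median -0.45). The amino acid stress gene Chac1 read 9.04, 12.70 and 9.28 against 8.62, 13.12 and 12.88, and Trib3 6.17, 9.90 and 7.03 against 6.97, 10.22 and 10.08. Nurr1 positive array 2 and Pitx3 positive arrays 2 and 3 were the high ones for both. The negative cells followed, with Chac1 at 7.95, 12.27 and 9.04 in the Nurr1 line and 8.25, 12.54 and 12.05 in the Pitx3 line. The stress list of 14 had 12 tested members, 9 means higher and a median of 0.19.

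The negative cells of the 2 lines were compared in the same fit. They were left by different reporters, so line and gate cannot be told apart here either. At an unadjusted p under 0.05 there were 472 genes (3.73%), and 1304 genes (10.3%) did not overlap, against 643 and 1112 between the positive cells. Beside Grb10 and Eif2s3y, the genes named there as higher were Lamp5, at least 4.55-fold, and Serpina3n (2.90), an acute-phase protease inhibitor of reactive astrocytes. Lower were Gkn2, at least 8.28-fold, Wfdc1, at least 3.70-fold, Gata6, at least 3.33-fold, and Krt8 (-2.44). Cck, above background in all 6 negative arrays, differed by -0.02 between the lines there (SE 1.08).

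Setting each line against its own negative cells asks which differences go with the sort. The difference of the sort effects called 0 of 12650 genes (0%; limma), with 56 (0.443%) at an unadjusted p under 0.05. This fit does not pair the fractions sorted together, and with them paired 0 genes passed and 480 had an unadjusted p under 0.05. Among the 4 genes named as highest, Cck was above background in all 12 arrays of both lines, Nanog in 7, and Chrna6 and Dnmt3l in 6 each, so that the sort effects of the last 3 are taken largely against background. Cck was higher in positive than negative cells by 3.80, 3.51 and 4.61 in the Pitx3 line and by 2.24, 1.85 and 0.69 in the Nurr1 line (difference 2.38, SE 1.53, adjusted p = 1.0). Among the 4 named as lowest, the astrocyte gene Aqp4 was above background in all 12 arrays and differed by -2.26 (adjusted p = 1.0), Nxph1 in 11, and Scrg1 and Serpina3n in 10 each. For Grb10 the sort effect differed by 1.24 (SE 0.44, adjusted p = 1.0). The positive cells had the lower Grb10 value in all 3 pairs of both lines, with sort effects of -0.16, -0.46 and -0.48 in the Pitx3 line and -2.42, -1.06 and -1.33 in the Nurr1 line.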

How the data were processed

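The samples were 18 Illumina BeadArrays of mouse cells, 3 for each of 6 groups defined by titles. The probe table holds, per the file headers, an average intensity and a detection p-value for each of 45281 probes and array, deposited without normalization between arrays. The authors also deposited a log2 table of 31441 genes, made with GenomeStudio and Partek per the submitters' processing notes, with no version or settings given in the sources used here. Probes were tied to genes by matching their values between the tables, which gave 30328 genes (96.5%) a probe, and older names were updated through RefSeq. In the probe table, 36 columns of per-array values were not used.

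Background correction, quantile normalization and the log2 transform were done by neqc of limma 3.58.1 in R 4.3.3 (offset 16). Probes with a detection p under 0.01 on at least 3 arrays were kept (18737), and a gene was read from its kept probe of highest mean, leaving 12650 genes. One linear model with 6 group means was fitted over the 18 arrays (12 residual degrees of freedom), with Benjamini-Hochberg adjustment over all genes. The fit was tested on simulated data. Where a group was not above background on all 3 arrays, the fold is a bound against the lowest signal above background.

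Lines were compared unpaired. Within a line, the 2 fractions with 1 number deviated together (correlations of 0.62 to 0.77), so they were treated as pairs in an alternative fit. The genes named were those of a fixed marker set, the largest differences without overlap, the leading members of each list and the widest ranges within a group. The members and the lists were chosen with earlier results of these data known. Alternatives covered the normalization, the filter on dim probes, the deposited table, array weights, the arrays in the fit, the replicate block and leaving out each array.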

Additional observations from a re-analysis of the deposited data

Results flagged for a closer look

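For 5 of the genes described, the sort effect (reporter-positive minus reporter-negative, log2) ran one way in all 3 pairs of the Pitx3 line and the other way in all 3 pairs of the Nurr1 line. The difference of the sort effects, Pitx3 line minus Nurr1 line, was 1.30 for Ntsr1, 1.26 for Pprc1 and 0.13 for Eif2s3y. It was -1.23 for Prph and -1.94 for Nxph1, which encodes a ligand of neurexins. None of the 5 passed in the test of that difference across all genes (limma). Eif2s3y and Ntsr1 were not above background in any array of the Nurr1 line, so their direction there is a difference between background readings. Prph and Pprc1 were above background in all 12 arrays of both lines.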

How the results depend on the processing

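Between the positive cells, 2 genes were called in every alternative except these: 1031 with array weights (379 higher, 652 lower), 1 with Pitx3 positive array 1 and Nurr1 positive array 3 both left out, a choice made after seeing the data, and 1 to 3 when a single array was left out. Without array 1 of the Hes5 negative cells, Pprc1 was added (adjusted p = 0.0447). Grb10 passed in all 32 alternatives. Between the negative cells, 1 gene was called with only the arrays compared and 1 with no filter on dim probes, and 1 to 2 when a single array was left out. The difference of the sort effects called 0 genes in the alternatives run for it, which left out the replicate block across lines and the random block, and with the replicate block within lines 480 genes had an unadjusted p under 0.05. Members of the lists passed only with array weights, 15 in all, 8 higher and 7 lower, and 0 when any single array was left out.

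Across the lines, same-numbered positive arrays did not deviate together (correlations of -0.17 to -0.07). Same-numbered negative arrays correlated at 0.02 to 0.36, against -0.36 to 0.26 for unlike numbers. Whether a number stands for a shared run was not tested. Between the positive cells, the replicate block across lines (limma) called 2 genes. With it 866 genes had an unadjusted p under 0.05, against 643 in the main fit. Some differences turned sign: Nr4a2 to -0.037 without normalization and in the deposited table, -0.0037 without Nurr1 positive array 2, and -0.082 and -0.085 without Pitx3 positive arrays 2 and 3. Foxa2 turned to 0.10 with array weights and 0.000468 without Nurr1 positive array 1, and Hes5 to -0.21 without Pitx3 positive array 1. Mki67, at -1.21 in the main fit, turned to 0.049 without Pitx3 positive array 2. With single arrays left out, the differences ranged up to 0.57 for Nr4a2, down to -0.24 for Foxa2, up to 1.13 for Hes5 and down to -2.32 for Mki67. The Slc6a3 difference lay between 0.68 and 4.38 over the alternatives and did not pass in any. The cause was not tested. A slide block was not run because the table holds no slide numbers. Signals near background limit the low genes, Eif2s3y in the Nurr1 line among them, to bounds.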
